A study of Mus musculus with 4 samples.

Results

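The genes described here are 40 mouse genes of growth factor signalling, taken by gene symbol: 17 ligands and 10 receptors of the EGF, FGF and PDGF families, 11 genes that are induced by ERK signalling and dampen or transmit it, and the growth factor response genes Phlda1 and Vegfa. All 40 were found among the 21862 genes listed once in each library. RNA sequencing had been performed to ask how matrix stiffness and Srf act on gene expression in N31 neural progenitor cells (NPCs). N31 is a mouse line made in culture by differentiation of iPSCs. It carries the Dox-inducible reprogramming factors Oct4, Klf4, c-Myc and Sox2, and rtTA. The 4 conditions were control and shSrf cells, each kept on a type I collagen-coated matrix of 0.5 kPa (soft) or 12 kPa (stiff) in medium from which EGF and bFGF had been left out. The shSrf cells expressed a short hairpin RNA against Srf (shSrf#1) from a retroviral vector, and whether control cells carried a vector without the hairpin was not given in the sources used here. Each condition had 1 library, so differences had no replicate check, no p-value was computed, and separate cultures of 1 condition could not be compared.

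EGF, FGF and PDGF family ligands bind receptor tyrosine kinases at the cell surface, and the receptors signal through RAS to the kinase ERK. ERK signalling induces its own inhibitors, among them the Sprouty and Spred proteins, which act on the steps around RAS, and the Dusp phosphatases, which dephosphorylate ERK, and it also induces ETS transcription factors of the Etv1, Etv4 and Etv5 group. FGF and EGF are the usual mitogens of cultured NPCs, and PDGF receptors are known from mesenchymal cells, pericytes and oligodendrocyte precursors.

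FPKM corrects the fragments counted for a gene for transcript length and for library size, so levels can be compared between genes. Srf, the targeted gene, had an FPKM of 34.4 and 35.6 in control cells on soft and stiff matrix and 16.2 and 17.4 in shSrf cells. The depth, estimated from the steps between low values, was 24100000 to 62300000 reads, with both shSrf libraries deeper than both control libraries. Of 12 NPC markers, 8 or 9 were above an FPKM of 2 in each library, but Sox1 and Hes5 were at 0 in all 4. Of 9 fibroblast or mesenchymal markers, 8 or 9 were above 2, with a summed FPKM of 2702 to 2876. Oligodendrocyte lineage markers were near absent (Olig2 at 0 in every library, and 1 of 7 markers above 2). Several markers differed between the populations, in both directions within the NPC list and within the mesenchymal list. Of the NPC markers, Sox2 had an FPKM of 4.29 and 5.49 in control against 19.1 and 20.4 in shSrf cells. Sox2 is also among the reprogramming factors that the line carries, and whether its reads include the transgene cannot be told. Nes had 51.6 and 36.1 against 16.4 and 15.5. Of the mesenchymal markers, Postn had 188 and 259 against 30.2 and 36.8, and Dcn 9.22 and 8.62 against 26.9 and 26.2. The part of these markers in the results below was not tested. In bulk RNA, fewer cells of a type and less RNA per cell cannot be told apart.

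Ratios were called where every library was above an FPKM of 2, which left 10489 genes. The same minimum was used by the authors. Of the 40 genes, 24 passed, 7 were above 2 in some libraries only, and 9 were at or under 2 in every library, between 0.00712 and 1.91. The latter were the ligands Egf, Tgfa, Btc, Fgf5 and Fgf10 and the receptors Erbb3, Erbb4, Fgfr3 and Fgfr4. All 11 ERK feedback and ETS genes passed, against 6 of 17 ligands and 5 of 10 receptors. A gene of the group of 7 that is high in 1 population and under 2 in the other had to differ between them, so its values are given as a description. The errors beside log2 ratios are standard errors from counting alone, computed from approximate read numbers, and leave out the variation between cultures and libraries.

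**Figure D1:**
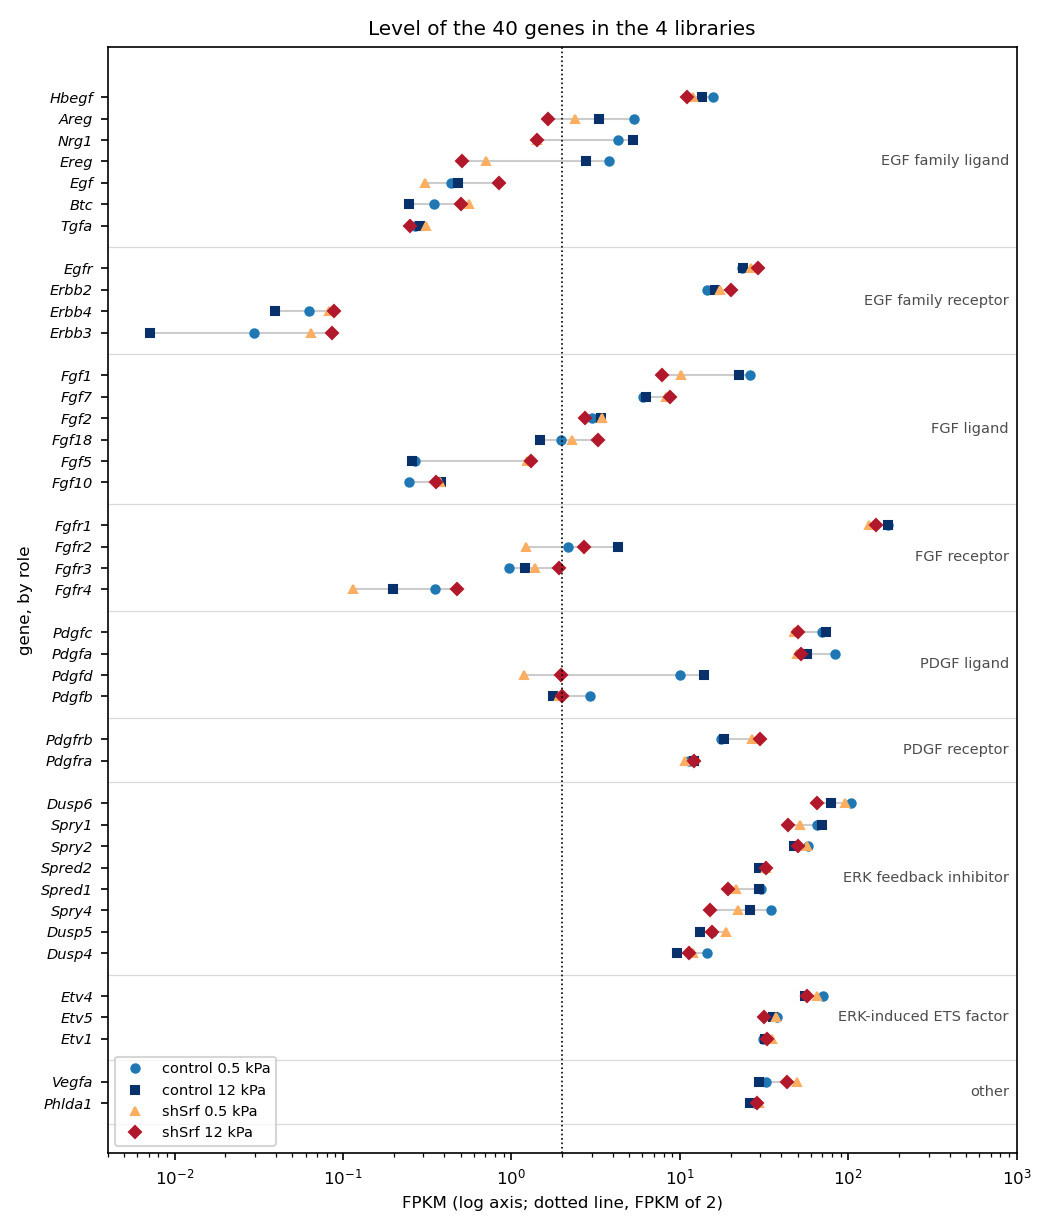
FPKM (log axis) of the 40 genes by role, with 1 symbol for each of the 4 libraries and a dotted line at an FPKM of 2. Fgfr1 was the most abundant gene in every library (133 to 172), and Pdgfd (1.19 to 13.9) and Ereg (0.507 to 3.79) spread widely between libraries, as did Erbb3 at far lower levels (0.00712 to 0.0855).

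Receptors were carried by 1 or 2 genes for each family. Fgfr1, the main FGF receptor of mesenchymal and neural progenitors (chromosome 8, 25518759 to 25575718 of mm10), was at an FPKM of 172 in both control libraries and 133 and 147 in shSrf cells on soft and stiff matrix. It made up 96.7 to 98.0% of the summed FPKM of the 4 FGF receptors. Egfr, the receptor for EGF, Hbegf, Areg and Ereg, was at 23.4 and 23.7 in control and 26.4 and 29.2 in shSrf cells. Erbb2, a co-receptor that binds no ligand of its own, was at 14.5 and 16.2 in control and 17.3 and 20.2 in shSrf cells. Erbb3 and Erbb4, the receptors that bind neuregulins, made up at most 0.187% of the summed FPKM of the EGF receptor family each. Pdgfra was at 11.4 and 12.1 in control and 10.7 and 12.1 in shSrf cells, so its libraries overlapped. Pdgfrb, the receptor of PDGF-B and PDGF-D, was at 17.6 and 18.2 in control against 26.7 and 30.0 in shSrf cells. Its populations did not overlap, but the share of all genes without overlap was not computed. Fgfr2, the receptor whose isoforms bind Fgf7 or Fgf1 and Fgf2, was at 2.16 and 4.26 in control and 1.21 and 2.68 in shSrf cells.

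Hbegf, Pdgfa and Pdgfc were the main ligands of their families in every library, and the FGF ligands were mainly Fgf1 and Fgf7. Hbegf, a heparin-binding EGF receptor ligand, held 52.3% of the summed FPKM of the 7 EGF family ligands in each control library and 67.9 and 68.1% in the shSrf libraries. Fgf1, the acidic FGF, held 69.5 and 65.7% of the FGF ligands in control and 39.4 and 32.3% in shSrf cells. Fgf7 held 16.0 and 18.3% in control and 32.3 and 36.1% in shSrf cells, so on stiff matrix its share there was above that of Fgf1. Pdgfa and Pdgfc, ligands of Pdgfra, together carried most of the PDGF ligand signal in every library. The summed FPKM of EGF family ligands was 30.3 and 25.9 in control and 17.7 and 16.2 in shSrf cells. The sum of the FGF ligands went from 37.6 and 34.3 to 25.8 and 24.3, and that of PDGF ligands from 167 and 146 to 101 and 107. In each of the 3 families both shSrf sums were below both control sums. How often such an order occurs over all genes was not computed, so it is a description, here and for the receptor sums below. Each sum was carried mainly by the genes named above. The lower FGF sum rested on Fgf1, at 26.1 and 22.6 in control and 10.2 and 7.85 in shSrf cells. Fgf5, Fgf7 and Fgf18 were higher in shSrf cells at both stiffnesses, and Fgf2 and Fgf10 were higher on soft and lower on stiff matrix. Receptor sums went in both directions. Those of the FGF receptors, the largest, were 175 and 177 in control and 136 and 152 in shSrf cells, both shSrf sums below both control sums. Those of the EGF receptors (38.1 and 40.04 against 43.9 and 49.5) and PDGF receptors (29.0 and 30.3 against 37.5 and 42.1) were higher in both shSrf libraries than in both control libraries.

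**Figure D2:**
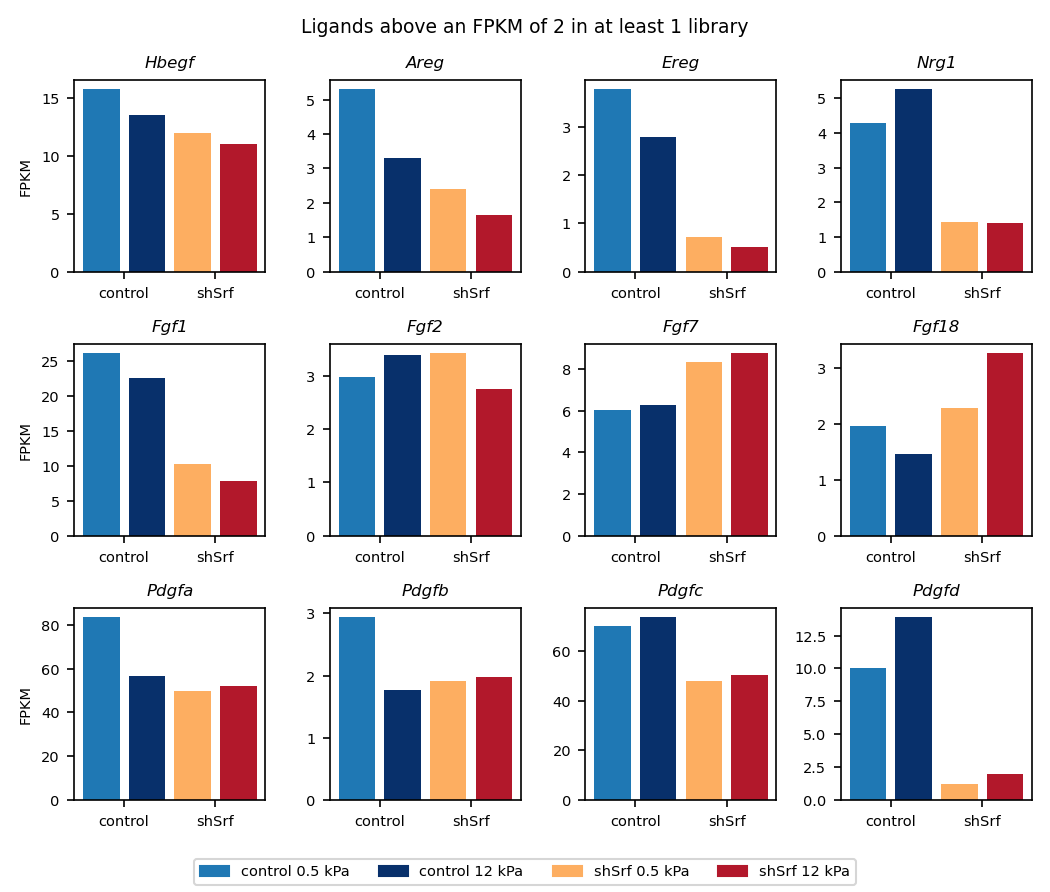
FPKM (linear axis from 0) of the 12 ligands above an FPKM of 2 in at least 1 library, with 1 bar for each library. Both shSrf bars lie below both control bars for Hbegf, Areg, Ereg, Nrg1, Fgf1, Pdgfa, Pdgfc and Pdgfd, and above them for Fgf7 and Fgf18. The share of all genes with such an order was not computed, so the order is a description. Areg, Ereg, Nrg1, Pdgfd and Fgf18 were under 2 in some libraries.

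To describe what Srf knockdown was associated with, shSrf and control cells were compared at each stiffness. The 2 stiffnesses share no library, and a gene was called where FPKM differed by 1.5-fold or more in the same direction at both. Of the 24 genes, 1 was higher in shSrf cells (Pdgfrb, 4.17%, against 6.63% of all genes above the minimum) and 2 were lower (Fgf1 and Spry4, 8.33% against 6.17%). These shares are near the background, and 17 of the 24 stayed within 1.5-fold at both stiffnesses. The median log2 ratio of the 24 was -0.05 at 0.5 kPa and 0.02 at 12 kPa, and that of all genes was 0.01 at each.

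Fgf1 had an FPKM of 26.1 and 22.6 in control and 10.2 and 7.85 in shSrf cells. Both shSrf libraries were below both control libraries, an order whose share over all genes was not computed. The log2 ratios of Fgf1 on soft and stiff matrix were -1.36 ± 0.08 and -1.52 ± 0.08. Spry4, a Sprouty inhibitor of the RAS-ERK route, was at 34.9 and 26.1 in control and 22.1 and 15.1 in shSrf cells, and its log2 ratio was -0.66 ± 0.03 and -0.79 ± 0.04. Pdgfrb was higher in shSrf cells by a log2 ratio of 0.61 ± 0.03 and 0.72 ± 0.03, a 1.52- and 1.65-fold difference that lay close to the threshold. With ratios centred within bins of transcript GC content its log2 ratio was 0.47 and 0.56, short of the threshold. Of 4 pericyte markers, which often accompany Pdgfrb, 1 (Anpep) was above an FPKM of 2 in each library. Their sum, mostly from Anpep, was 14.5 and 16.6 in control and 9.48 and 14.1 in shSrf cells. The sum of 4 endothelial markers was 1.34 and 1.46 in control and 6.03 and 5.94 in shSrf cells, mostly from Emcn, and its part in the result was not tested. Fgf1, Pdgfd, Nrg1, Erbb2, Fgf2 and Fgf7 each overlap another annotated gene, and whether counting used strand was not given, so reads of such neighbours cannot be told apart.

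Wide differences were also found in ligands that the minimum removed, and they went in both directions. Pdgfd, a ligand of Pdgfrb that needs proteolytic activation, lies on chromosome 9 from 6168363 to 6534284. Its levels were 10.0 and 13.9 in control and 1.19 and 1.96 in shSrf cells. It was 8.48-fold lower in shSrf cells on soft and 7.09-fold lower on stiff matrix (log2 ratio -3.08 ± 0.13 and -2.83 ± 0.09). Its receptor Pdgfrb, described above, was called in the other direction. Ereg, which encodes epiregulin (chromosome 5, 91074617 to 91093649), was at 3.79 and 2.77 in control and 0.706 and 0.507 in shSrf cells, 5.36- and 5.48-fold lower. Areg, which encodes amphiregulin and lies next to Ereg (chromosome 5, 91139599 to 91148432), was at 5.32 and 3.31 in control and 2.39 and 1.65 in shSrf cells, 2.23- and 2.01-fold lower. Nrg1, a neuregulin, was at 4.29 and 5.28 in control and 1.42 and 1.41 in shSrf cells, 3.03- and 3.74-fold lower. In each of these 4 ligands both shSrf libraries were below both control libraries, an order whose share over all genes was not computed. With a pseudocount of 1 FPKM the log2 ratios at 0.5 and 12 kPa were nearer to 0, at -2.34 and -2.33 for Pdgfd and at -1.49 and -1.33 for Ereg. Fgf5, a ligand under an FPKM of 2 in every library that is named here after its values were seen, went the other way. It was at 0.269 and 0.258 in control and 1.24 and 1.31 in shSrf cells, 4.61- and 5.10-fold higher, on approximately 128 and 188 reads in shSrf cells and 18.0 and 14.3 in control cells. With an FPKM above 2 in at least 1 library as the minimum, a setting chosen after the data were seen, 7 of 31 genes were lower (Areg, Ereg, Nrg1, Fgf1, Fgfr2, Pdgfd and Spry4, against 7.40% of 11351 genes) and 1 was higher (Pdgfrb, against 8.69%). Genes that such a minimum admits through the control libraries alone had to differ, so that count is no support for a fall of the group.

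**Figure D3:**
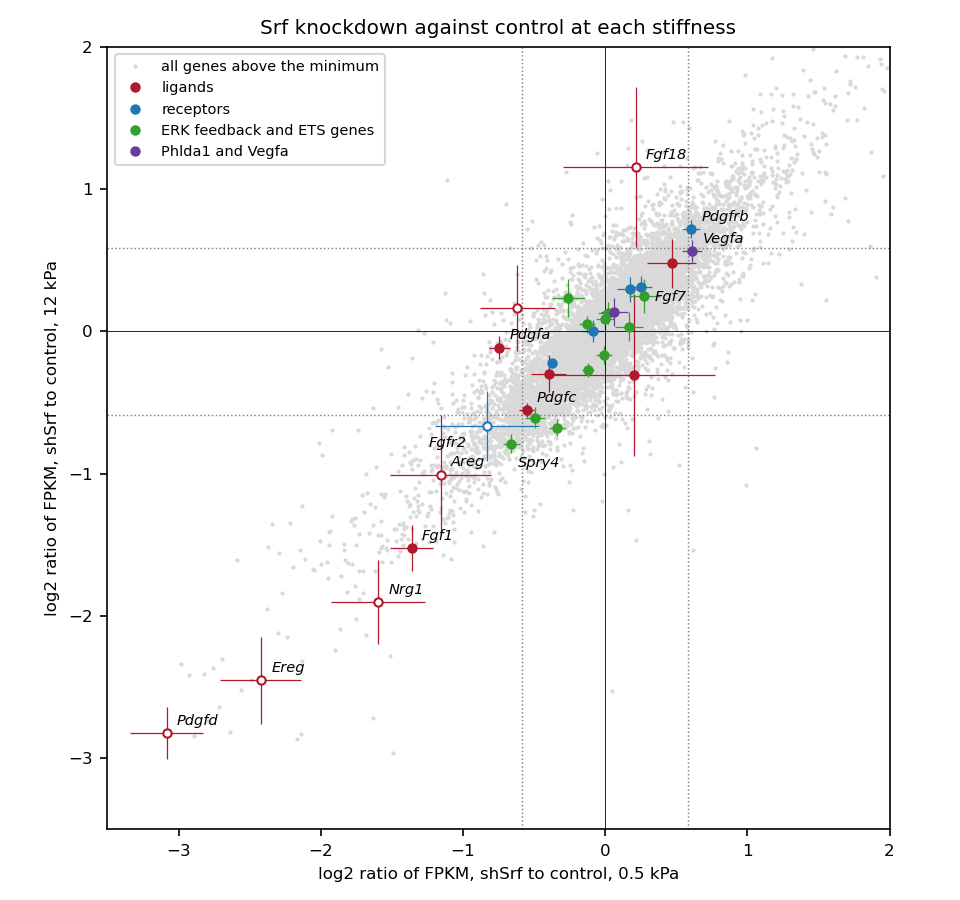
Log2 ratio of FPKM in shSrf to control cells at 0.5 kPa (x axis) and 12 kPa (y axis), with bars of 1.96 counting standard errors, for the 31 genes above an FPKM of 2 in at least 1 library; open symbols were at or under 2 in some library, and grey points are all genes above the minimum that lie within the axes. Dotted lines mark 1.5-fold, and Pdgfd, Ereg, Nrg1, Fgf1 and Areg lie farthest toward the lower left.

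Other ligands stayed short of the call. Pdgfc was at 70.3 and 74.0 in control and 47.9 and 50.4 in shSrf cells, 1.47-fold lower at each stiffness. Hbegf was at 15.8 and 13.6 in control and 12.0 and 11.0 in shSrf cells. Fgf7, a ligand of epithelial Fgfr2, was at 6.03 and 6.29 in control and 8.33 and 8.77 in shSrf cells. These 3 ligands missed the threshold. Their populations did not overlap, but the share of all genes without overlap was not computed. Pdgfa was at 83.7 in control cells on soft matrix and at 56.6, 49.95 and 52.3 in the other libraries (control stiff, shSrf soft, shSrf stiff), so 1 library stood apart. Pdgfb was also highest in that library, at 2.94 against 1.77, 1.92 and 1.98. Fgf2, the bFGF left out of the medium as a protein, was at 2.99 and 3.39 in control and 3.44 and 2.75 in shSrf cells, and its libraries overlapped. Vegfa, a ligand of endothelial receptors, was at 32.6 and 29.5 in control and 49.9 and 43.6 in shSrf cells, 1.53- and 1.48-fold higher, which misses the threshold on stiff matrix. Phlda1, an early response gene, stayed between 26.3 and 29.3 in the 4 libraries.

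Among the feedback genes other than Spry4, Spry1 was at 65.7 and 70.2 in control and 51.9 and 43.9 in shSrf cells, and Spred1 at 30.5 and 29.3 against 21.6 and 19.3. Neither passed 1.5-fold at 0.5 kPa. The other feedback and ETS genes differed by less than 1.5-fold at each stiffness, and the median log2 ratio of the 11 was -0.12 and 0.03.

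Stiffness was compared within each population, with the 1.1-fold threshold of the study's methods. In control cells 10 of the 24 genes (41.7%) were lower on stiff matrix, against 16.9% of all genes above the minimum, and 2 (Erbb2 and Fgf2) were higher, against 17.9%. In shSrf cells 11 (45.8%) were lower, against 13.0%, and 5 (20.8%) were higher, against 17.6%. Lower in both populations were 7 genes, Fgf1, Spry2, Spry4, Dusp5, Dusp6, Etv4 and Vegfa (29.2% of the 24, against 3.24% of all genes), and 1 was higher in both (Erbb2, 4.17%, against 5.10%). The control and shSrf comparisons share no library.

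The genes lower on stiff matrix were mostly feedback and ETS genes. Of these 11, 6 were lower in control cells (54.5%), 8 in shSrf cells (72.7%) and 5 in both (45.5%), and none was higher. Their median log2 ratio of stiff to soft matrix was -0.25 in control and -0.18 in shSrf cells, and that of all genes was 0.00 and 0.01. Dusp6, the phosphatase specific for ERK and the most abundant gene of the group (chromosome 10, 99263231 to 99267489), was at 104 on soft and 78.7 on stiff matrix in control cells. In shSrf cells it was at 95.9 and 65.2, and the log2 ratio of stiff to soft matrix was -0.41 ± 0.03 in control and -0.56 ± 0.02 in shSrf cells. Both stiff libraries were below both soft libraries. Spry4 fell by 0.42 ± 0.03 and 0.55 ± 0.03 on the log2 scale, and as its shSrf soft library was below its control stiff library, its order followed population and stiffness alike. Etv4, an ETS factor, was at 71.0 and 55.4 in control and 64.9 and 57.3 in shSrf cells, with both stiff libraries below both soft ones. Spry2 was at 57.4 and 47.5 in control and 57.3 and 50.4 in shSrf cells, again with both stiff libraries below both soft ones. Dusp4, Dusp5 and Etv5 had this order too. The share of all genes with this order was not computed, so it is a description.

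Dusp5, a nuclear ERK phosphatase, was at 15.62 and 13.1 in control and 18.9 and 15.58 in shSrf cells, with a log2 ratio of -0.25 ± 0.07 and -0.28 ± 0.04. Dusp4, another nuclear phosphatase, was at 14.4 and 9.58 in control, a log2 ratio of -0.59 ± 0.07, and at 12.0 and 11.3 in shSrf cells, where it did not pass. Spry1 was at 65.7 and 70.2 in control and fell from 51.9 to 43.9 in shSrf cells. Spred1 and Etv5 also passed in shSrf cells alone, with log2 ratios of -0.17 ± 0.03 and -0.23 ± 0.03 there and -0.06 ± 0.04 and -0.08 ± 0.03 in control cells. Whether these genes responded otherwise in the 2 populations was not tested. Spred2 (29.7 to 32.5) and Etv1 (31.2 to 35.1) passed in neither. The calls were counted at a 1.1-fold threshold, and at 1.5-fold 1 of the 24 genes (Dusp4 in control cells) remained lower in control and 0 in shSrf cells.

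**Figure D4:**
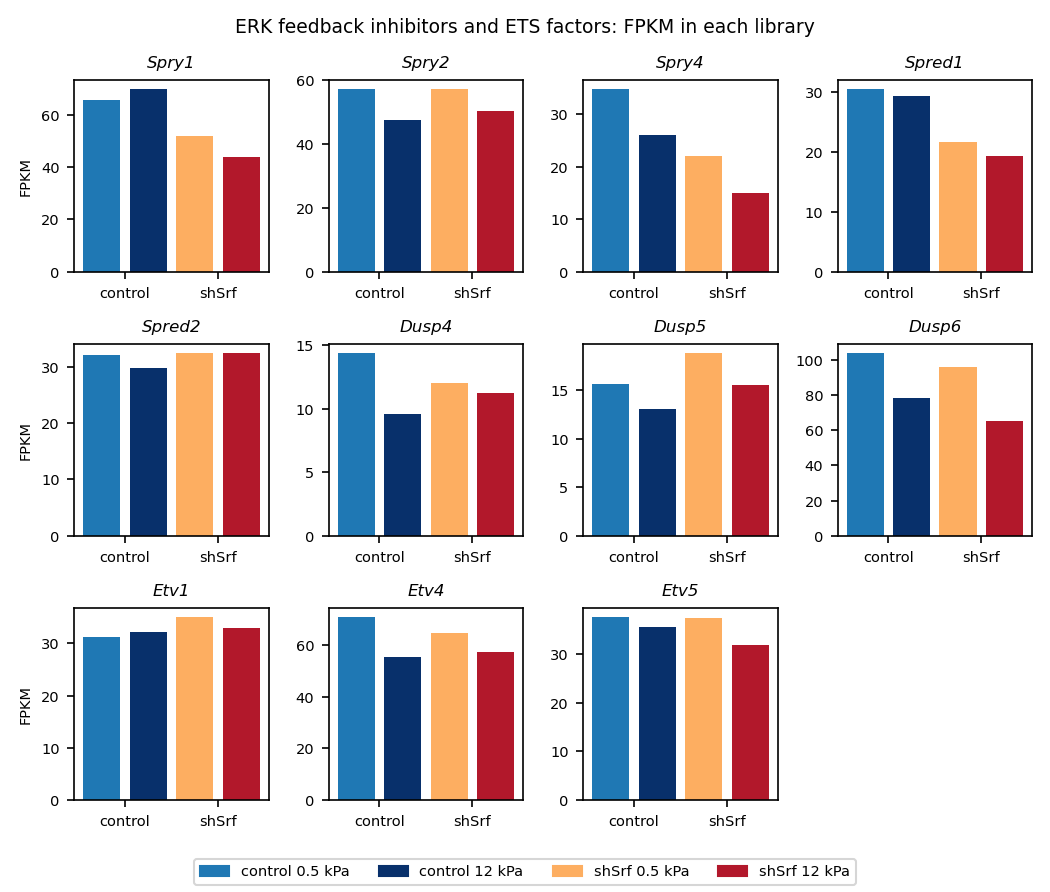
FPKM (linear axis from 0) of the 8 ERK feedback inhibitors and 3 ETS factors, with 1 bar for each library. The stiff bar lies below the soft bar in both populations for Spry2, Spry4, Dusp5, Dusp6, Etv4 and others, and the log2 ratio of stiff to soft matrix was -0.59 for Dusp4 in control cells and -0.56 for Dusp6 in shSrf cells.

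Outside the feedback genes, Fgf1 fell by 0.21 ± 0.07 in control and by 0.37 ± 0.08 in shSrf cells on the log2 scale, and Vegfa by 0.15 ± 0.04 and 0.19 ± 0.03. Hbegf fell by 0.22 ± 0.07 in control cells, and its log2 ratio was -0.12 ± 0.06 in shSrf cells. Pdgfa fell by 0.57 ± 0.04 in control cells, and its log2 ratio was 0.07 ± 0.04 in shSrf cells. Its ratios differed by -0.63 ± 0.06 between control and shSrf cells, a difference that rests on the control library on soft matrix.

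All 5 receptors above the minimum were higher on stiff matrix in shSrf cells past 1.1-fold, against 17.6% of all genes. Their log2 ratios there were from 0.14 to 0.22. In control cells their log2 ratios ran from -0.00 to 0.16, and Erbb2 passed, against 17.9% of all genes. These differences are close to the threshold. With ratios centred on their median 4 of the 5 passed, without Egfr, and with centring within bins of GC content 3 passed (Egfr, Erbb2 and Pdgfra). Among genes with lower levels, Fgfr2 (chromosome 7, 130162451 to 130266808) was 1.97-fold higher on stiff matrix in control and 2.21-fold higher in shSrf cells, on approximately 112 to 344 reads a library. Pdgfd was 1.39- and 1.66-fold higher on stiff matrix. Areg was 1.61- and 1.45-fold lower and Ereg 1.36- and 1.39-fold lower. For each of these 4 genes the ratio had the same sign in both populations. With the minimum of 2 in at least 1 library, 5 of 31 genes were higher (16.1%, against 19.4% of all genes) and 14 lower (45.2%, against 18.4%) in control cells. In shSrf cells 8 were higher (25.8%, against 19.6%) and 13 lower (41.9%, against 13.8%). In both populations 3 were higher (Erbb2, Fgfr2 and Pdgfd, against 6.19%) and 9 lower (against 3.74%). This minimum admits genes through a library where they are high, such as Pdgfb through control cells on soft matrix. Such genes had to differ, so these counts are a description and no support for a change of the group.

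**Figure D5:**
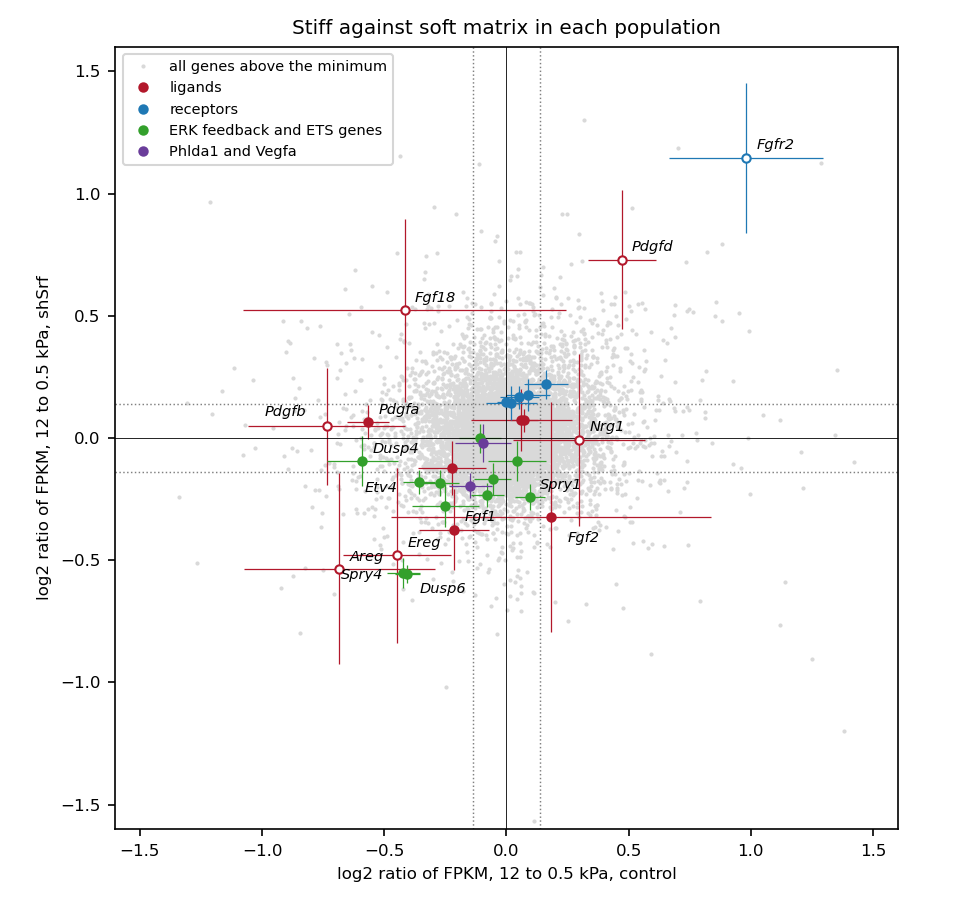
Log2 ratio of FPKM on 12 kPa to 0.5 kPa matrix in control (x axis) and shSrf cells (y axis), with bars of 1.96 counting standard errors, for the 31 genes above an FPKM of 2 in at least 1 library; open symbols were at or under 2 in some library, and grey points are all genes above the minimum that lie within the axes. Dotted lines mark 1.1-fold, feedback and ETS genes (green) lie toward the lower left, and Fgfr2 and Pdgfd lie toward the upper right.

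Further genes of the pathway were counted from a list of 93, of which 92 were in the files and 64 passed the minimum. In shSrf cells 12 of 64 were lower than in control at both stiffnesses (18.8%, against 6.17% of all genes) and 6 were higher (9.38%, against 6.63%). The lower genes included 6 of 14 heparan sulfate genes, which encode core proteins (Gpc1, Gpc4, Sdc2 and Sdc4) and enzymes that make or modify the sugar chains (Hs6st2 and Sulf1). Heparan sulfate takes part in the binding of FGF ligands to their receptors. Log2 ratios at 0.5 and 12 kPa were -2.59 and -1.61 for Hs6st2, a heparan 6-O-sulfotransferase. They were -2.27 and -1.84 for Sdc2, a syndecan. The glypicans Gpc4 and Gpc1 had -1.84 and -1.50 and -1.38 and -0.85. Of the related sulfatases, which remove 6-O-sulfate, Sulf1 was lower, with -0.94 and -0.93, and Sulf2 was higher, with 1.24 and 1.66. Il17rd, an FGF feedback inhibitor, was lower, with -1.42 and -1.50. So was Flrt3, a membrane protein that binds FGF receptors, with -1.02 and -1.12. Nrp2, a co-receptor of VEGF, was higher, with 1.07 and 1.38. Of 9 other ERK feedback and response genes, 3 were higher in shSrf cells (Dusp1, Dusp9 and Myc, 33.3%, against 6.63% of all genes). Myc is among the reprogramming factors that the line carries, and whether its reads include the transgene cannot be told. Il17rd was the 1 called lower (11.1%, against 6.17%). Of 21 genes listed as RAS-ERK core or its regulators, 1 was called lower (Rasa1, 4.76%, against 6.17% of all genes). None of them was called higher, against 6.63% of all genes. The share called lower is near the background. With stiffness, 5 of 9 other ERK response genes were lower in control cells, 4 in shSrf cells and 4 in both (Dusp2, Dusp9, Ier3 and Ccnd1), against 16.9%, 13.0% and 3.24% of all genes. Il17rd was 1.13-fold higher on stiff matrix in control cells and Dusp7 was 1.37-fold higher in shSrf cells. Over the 64 genes, 6 were lower in both populations (9.38%, against 3.24% of all genes) and 7 were higher in both (10.9%, against 5.10%: Frs3, Flrt3, Lrig3, Vegfc, Hs6st2, Sulf1 and Gpc4).

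Since Srf was the targeted gene, the CArG box that it binds was searched for in promoter windows of RefSeq on build GRCm38.p6, each of 300 bases from 250 before to 50 after an annotated start, on both strands. Windows were given for 28 of the 40 genes. Fgfr1, Etv4, Ereg, Pdgfb, Erbb3, Phlda1, Nrg1, Hbegf, Pdgfrb, Spry4, Dusp4 and Fgf1 were not matched. As Fgf1, Spry4 and Pdgfrb are among these, the search covered none of the genes called with knockdown under the main minimum. CArG boxes were found in 2 of the 34 windows of the matched genes, those of Dusp5 and Pdgfc, against 1.63% of 32851 windows. The windows of Areg (TGACGTCA, the cAMP response element, found in 1.79% of windows, and TATAAA, found in 13.6%) and of Pdgfd (TATAAA) are printed as those of ligands with wide differences. TATAAA also occurred in Etv1 and Fgf5, and an AP-1 site (TGACTCA or TGAGTCA) occurred in 0 of the 28 and in 5.20% of windows. Capitals mark the CArG boxes of Dusp5 (chr19:53528895-53529194, plus strand, first bases 82 and 72 before the start) and Pdgfc (chr3:81036166-81036465, plus strand, 17 before), and the named motifs of Areg (chr5:91139349-91139648, plus strand, 61 and 31 before) and Pdgfd (chr9:6168236-6168535, plus strand, 160 before). The Pdgfd window is set on an annotated start that lies downstream of the gene's first base given above (6168363), and the distance is to that annotated start. A match is letters in a window and not evidence of binding.
Dusp5: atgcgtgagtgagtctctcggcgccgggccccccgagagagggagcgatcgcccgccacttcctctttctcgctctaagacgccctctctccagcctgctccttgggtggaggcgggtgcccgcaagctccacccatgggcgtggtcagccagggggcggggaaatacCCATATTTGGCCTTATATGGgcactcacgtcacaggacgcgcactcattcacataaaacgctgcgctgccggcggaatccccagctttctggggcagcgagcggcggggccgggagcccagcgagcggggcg
Pdgfc: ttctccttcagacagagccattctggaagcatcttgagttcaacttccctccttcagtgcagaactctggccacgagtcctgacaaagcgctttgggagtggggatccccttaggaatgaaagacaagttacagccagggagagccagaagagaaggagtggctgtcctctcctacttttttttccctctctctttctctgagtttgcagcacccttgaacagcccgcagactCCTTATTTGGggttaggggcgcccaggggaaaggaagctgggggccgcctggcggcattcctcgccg
Areg: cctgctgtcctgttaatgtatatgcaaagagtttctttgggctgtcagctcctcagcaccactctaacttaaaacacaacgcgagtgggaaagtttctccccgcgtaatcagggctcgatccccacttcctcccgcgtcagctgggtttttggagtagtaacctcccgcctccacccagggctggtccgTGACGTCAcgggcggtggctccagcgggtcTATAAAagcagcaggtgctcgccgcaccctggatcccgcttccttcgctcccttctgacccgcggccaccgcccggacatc
Pdgfd: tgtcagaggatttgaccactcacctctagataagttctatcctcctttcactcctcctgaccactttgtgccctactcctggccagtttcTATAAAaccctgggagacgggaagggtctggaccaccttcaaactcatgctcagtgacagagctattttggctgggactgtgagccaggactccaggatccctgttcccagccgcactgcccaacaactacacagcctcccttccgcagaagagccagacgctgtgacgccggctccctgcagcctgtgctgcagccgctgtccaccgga
Of the genes with a CArG box, Pdgfc was 1.47-fold lower in shSrf cells at each stiffness and Dusp5 had a log2 ratio of 0.27 and 0.25, so the values of this pair lay on opposite sides of 0.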

How the data were processed

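RNA-seq libraries of N31 NPCs, 1 for each of 4 conditions, were used. The authors prepared stranded mRNA libraries, sequenced them single-end, trimmed reads with cutadapt 1.9.1, mapped them to mm10 with TopHat2 2.1.0 and Bowtie2 2.2.8 using the GENCODE annotation, kept reads with a mapping quality of at least 20, and deposited 1 FPKM value for each gene from Cufflinks 2.2.1. Values were used as deposited. The 63 symbols that occurred more than once (135 of 21997 rows) were left out. Ratios were computed without a pseudocount. Genes were named by role: those above an FPKM of 2 in any library with all values, the others by range, and of the pathway list the 8 with the largest mean log2 ratio past 1.5-fold at both stiffnesses. The genes and lists were chosen with earlier results of these data known. Depth was estimated from low values that fall on whole-read steps, and read numbers used transcript lengths of GENCODE version M1 on NCBIM37. Counting errors cover reads only. Coordinates came from RefSeq, build GRCm38.p6 (mm10). Calculations were tested on simulated data. Alternatives were other minimums, a pseudocount of 1, centring, scaling to the 75th percentile, GC-bin centring and other thresholds. Python 3.11.15, numpy 2.4.6, pandas 2.3.3 and matplotlib 3.10.9 were used.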

Additional observations from a re-analysis of the deposited data

Results flagged for a closer look

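Fgf2 and Fgf18 had stiffness ratios of opposite sign in control and shSrf cells, which was not tested with 1 library per condition. The log2 ratio of Fgf2 on stiff to soft matrix was 0.18 in control and -0.32 in shSrf cells, a difference of 0.51 with a counting standard error of 0.41. For Fgf18, which had an FPKM of 1.96 and 1.47 in control and 2.28 and 3.27 in shSrf cells, the log2 ratio was -0.42 in control and 0.52 in shSrf cells, a difference of -0.94 with a counting standard error of 0.39. Both rest on fewer than 200 estimated reads in each library.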

How the results depend on the processing

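No paired analysis was possible because there was a single library for every condition, and for that reason no replicate could be left out. No called value changed direction under the alternatives run. The count higher in shSrf cells (1) was 0 with a pseudocount of 1 under the main minimum and under a minimum of 2 in at least 1 library, 6 at 1.1-fold and 0 at 2-fold. It stayed 1 with centring within GC bins, but the gene was Fgf7 and not Pdgfrb, and with no minimum and a pseudocount, but the gene was Fgf5. The count lower in shSrf cells (2) was 6 with a minimum of 1, with a minimum of 2 in at least 1 library and a pseudocount, and with no minimum and a pseudocount, 7 with that minimum and no pseudocount, 7 at 1.1-fold and 1 at 2-fold. On stiff matrix, the count higher in control cells (2) was 5 with a minimum of 1 and with a minimum of 2 in at least 1 library with or without a pseudocount, 7 with no minimum, 1 with a minimum of 5, and 0 at 1.2- and 1.5-fold. The count lower in control cells (10) was 6 at 1.2-fold and 1 at 1.5-fold. In shSrf cells the count higher (5) was 8 with the same 3 lower minimums, 11 with no minimum, and 0 at 1.2- and 1.5-fold, and the count lower (11) was 5 at 1.2-fold and 0 at 1.5-fold. At 1.2-fold 6.72% of all genes were lower in control and 3.14% in shSrf cells. The 7 genes lower in both populations were called with centring, scaling and a pseudocount, and Dusp4 joined them with GC-bin centring. Single log2 ratios kept their sign in 124 of 124 cases with a pseudocount, where the largest shift was 1.13, 123 of 124 with centring and with scaling, and 91 of 96 with GC-bin centring, where the largest shift was 0.328.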
